A study of Mus musculus with 12 samples.

Results

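The 33 genes described here encode subunits of the mouse Polycomb repressive complexes and of the deubiquitinase that opposes them. They were taken by gene symbol from the 52654 genes listed in all 12 count files: 11 belong to Polycomb repressive complex 2 (PRC2), 20 to Polycomb repressive complex 1 (PRC1) and its variant forms, and 2 to the Polycomb repressive deubiquitinase (PR-DUB). All 33 passed the low-count filter and were tested with 13340 genes in all. The cells were MC3T3-E1 subclone 14, a mouse calvarial preosteoblast line that is a single clone, grown on discs of control titanium or of titanium with nanotopography in medium with ascorbic acid (5 µg/mL) and β-glycerophosphate (7 mM). Isolated cultures stayed alone until day 7. Co-cultures spent the last 2 of those 7 days under an insert with 0.4 µm pores that held osteoclasts raised from the RAW 264.7 macrophage line with 50 ng/mL RANKL, the cytokine that drives osteoclast formation. The 4 groups, isolated or co-cultured on either surface, had 3 RNA-seq libraries each, which the submitters describe as biological triplicates. RANKL, the insert and the osteoclasts came together, so their effects cannot be told apart, and p-values measure the spread between these libraries of 1 cell line. Bulk libraries also cannot tell fewer cells of a kind from less RNA per cell.

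PRC2 methylates lysine 27 of histone H3 through its catalytic subunit Ezh2 or Ezh1, held by Eed, Suz12 and the histone chaperones Rbbp4 and Rbbp7. PRC1 attaches ubiquitin to histone H2A through Rnf2 or Ring1, paired with a Pcgf protein. Canonical PRC1 carries chromobox (Cbx) and Polyhomeotic (Phc) subunits that read the PRC2 mark and compact chromatin, and variant PRC1 carries Rybp or Yaf2 in their place. Both complexes keep developmental genes silent and are known to influence the commitment of mesenchymal cells to bone. The series is titled around histone methylation in osteoblasts exposed to osteoclasts, so the transcripts of the enzymes that write the H3K27 mark bear on its question.

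The libraries held between 5866842 and 9207831 counts. All 10 osteoblast markers were detected in every library, with a summed level of 51340 to 64450 counts scaled to library size (CPM, as edgeR computes it with TMM scaling) in isolated cells on control titanium, 55000 to 58110 in isolated cells on nanotopography, 45580 to 54630 in co-culture on control titanium and 30940 to 36380 in co-culture on nanotopography. Col1a1 made up most of this sum, at 44690 ± 3990 CPM (SD, n = 3) in the first of these groups and 23430 ± 3031 in the last. Of 16 macrophage and osteoclast markers, Ctsk and Mmp9 carried most of the signal in every group. The other 14 summed to 3.20 to 6.30 CPM in isolated cells on control titanium, 3.97 to 4.72 in isolated cells on nanotopography, 4.11 to 9.34 in co-culture on control titanium and 15.9 to 45.3 in co-culture on nanotopography. Ptprc, Tyrobp, Atp6v0d2, Dcstamp, Clec5a, Itgam and Adgre1 had 0 counts in isolated cells, and Clec5a reached 5.40 ± 3.03 CPM (SD, n = 3) in co-culture on nanotopography. Of the 6 nanotopography libraries, 5 also differed from those on control titanium in how counts followed the GC content of transcripts: per 10 percentage points of GC, expression relative to the mean library fell by 0.40 to 0.81 on the log2 scale in co-culture on nanotopography, rose by 0.19 to 0.54 in isolated cells on nanotopography and moved by -0.08 to 0.20 in the 6 libraries on control titanium. Isolated nanotopography library 2, at 0.19, lay within the range of control titanium. The share of counts in mitochondrial ribosomal RNA was 8.66% to 15.8% in co-culture on nanotopography and 4.52% to 9.80% in the other groups. Results are therefore given from the edgeR quasi-likelihood fit and, beside it, from a fit that took out, library by library, the dependence on GC content and on transcript length (GC-adjusted below). With osteoclasts on nanotopography, edgeR called 5 of the 10 osteoblast markers lower and 2 higher, and 59.1% of all tested genes. The GC-adjusted fit called 2 lower and 2 higher, and 39.3% of all tested genes. Col1a1 was not called in that fit (-0.06 on the log2 scale).

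Per kilobase of exon, the most abundant transcript was Rbbp7, at 48.8 CPM per kb averaged over the 12 libraries. Bmi1, the Pcgf protein of canonical PRC1, followed at 26.3 and Suz12 at 20.0 CPM per kb. Pcgf3, which belongs to a variant PRC1, stood at 16.3, Rbbp4 at 15.8 and Aebp2, a PRC2 cofactor that binds DNA, at 14.4 CPM per kb. Of the catalytic PRC2 subunits, Ezh2 averaged 11.4 and Ezh1 5.28 CPM per kb, and the lowest library for Ezh2 (9.78) lay above the highest for Ezh1 (7.27). Of the PRC1 ubiquitin ligases, Rnf2 averaged 13.9 and Ring1 4.39 CPM per kb, with the lowest Rnf2 library (7.72) above the highest Ring1 library (6.34). The chromobox genes were low: Cbx6 averaged 4.91, Cbx8 4.81, Cbx2 1.49 and Cbx7 0.436 CPM per kb. Phf19, a PRC2 cofactor that recognises active chromatin, was the lowest member at 0.356 CPM per kb. Neighbours in this order often overlapped, as Pcgf3 and Rbbp4 did (13.5 to 19.2 and 11.8 to 19.8 CPM per kb over the libraries). The order can also depend on the length used, which was that of all annotated exons of a gene merged. This length was 8744 bases for Rbbp4, whose longest transcript has 4663, and 3974 for Bmi1, whose longest transcript has 3594.

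**Figure D1:**
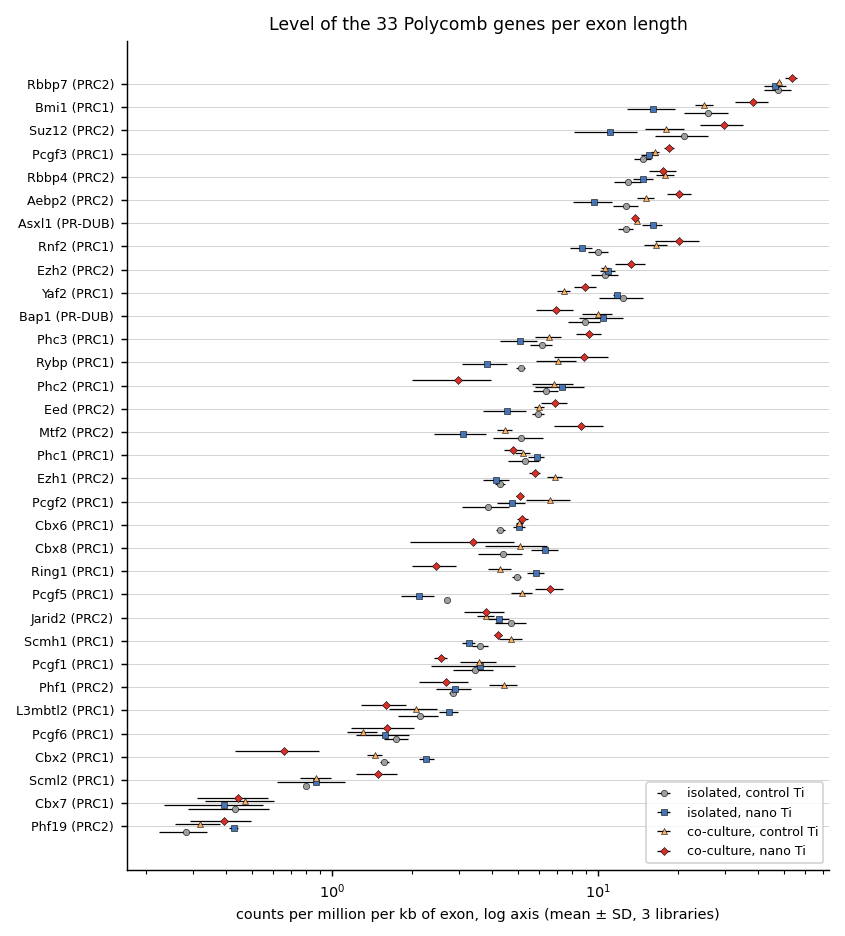
Level of each of the 33 Polycomb genes in CPM per kb of exon (log axis), with symbols for the mean of the 3 libraries of each group and bars for the SD. Rbbp7 is highest and Phf19 lowest, Ezh2 lies above Ezh1 in every group, and Pcgf5 is higher in both co-culture groups than in both isolated groups.

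On control titanium, cells co-cultured with osteoclasts had higher transcripts of 7 Polycomb genes and lower transcripts of 1 than isolated cells. The genes that rose were the catalytic subunit Ezh1 and the chaperone Rbbp4 of PRC2, the PRC2 cofactor Phf1, the ubiquitin ligase Rnf2, its partners Pcgf5 and Pcgf2, and Scmh1, a PRC1-associated protein with a SAM domain. The gene that fell was Yaf2, a variant PRC1 subunit. These 8 genes are 24.2% of the members. Over all tested genes, 19.8% were called in either direction (11.0% higher, 8.76% lower), so the members' share was close to the background. The median log2 fold change of the 33 members was 0.11, against -0.02 over all tested genes. The libraries of the groups did not overlap for 14 members and for 36.1% of all tested genes.

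The catalytic subunits of PRC2 differed in this comparison. Ezh1 stood at 30.5, 33.2 and 31.8 CPM in isolated cells and at 52.0, 54.1 and 47.6 CPM in co-culture, with every co-cultured library above every isolated one. The log2 fold change of Ezh1 was 0.69 ± 0.11 (SE; edgeR adjusted p = 0.000411). Ezh2, the other catalytic subunit, averaged 71.0 ± 8.27 CPM in isolated cells and 71.1 ± 2.51 CPM in co-culture (SD, n = 3 each) and its libraries overlapped. Ezh2 had a log2 fold change of 0.00 ± 0.12 (edgeR adjusted p = 1). The scaffold Eed (0.01 ± 0.14), Suz12 (-0.22 ± 0.18) and Rbbp7 (0.02 ± 0.11) did not pass the test either. Rbbp4 stood at 104, 109 and 129 CPM in isolated cells and 158, 167 and 143 CPM in co-culture, without overlap. Rbbp4 had a log2 fold change of 0.46 ± 0.12 (edgeR adjusted p = 0.0106). Phf1, which binds methylated H3 and brings PRC2 to it, stood at 9.66, 9.80 and 10.3 CPM in isolated cells and 16.4, 16.6 and 13.3 CPM in co-culture. The groups were separate, and the log2 fold change was 0.65 ± 0.18 (edgeR adjusted p = 0.0157). Without isolated control library 1 or 2, Rbbp4 (edgeR adjusted p = 0.0579 and 0.0571) and Phf1 (0.0567 and 0.0639) did not pass, and Phf1 also did not pass without co-culture control library 1 or 2 (0.0546 and 0.0592).

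Among PRC1 genes, Pcgf5 had the smallest p. This Pcgf protein forms a variant PRC1 that places ubiquitin on H2A without a chromobox subunit. It stood at 33.7, 34.6 and 34.3 CPM in isolated cells and at 71.6, 64.3 and 60.3 CPM in co-culture, so that the lowest co-cultured library lay well above the highest isolated one. The log2 fold change was 0.94 ± 0.12 (edgeR adjusted p = 5.08e-05). Its partner Rnf2, the main H2A ubiquitin ligase, stood at 45.5, 38.3 and 40.6 CPM in isolated cells and 76.1, 64.6 and 64.3 CPM in co-culture. All co-cultured libraries were higher, with a log2 fold change of 0.72 ± 0.14 (edgeR adjusted p = 0.00115), while the alternative ligase Ring1 had a log2 fold change of -0.21 ± 0.15 that did not pass. Pcgf2, the relative of Bmi1 in canonical PRC1, stood at 16.2, 13.8 and 10.8 CPM in isolated cells and 19.0, 27.7 and 23.1 CPM in co-culture. The groups did not overlap and the log2 fold change was 0.76 ± 0.17 (edgeR adjusted p = 0.00421), whereas Bmi1 itself stood at -0.05 ± 0.15. Yaf2 moved the other way, from 28.2, 19.8 and 21.9 CPM in isolated cells to 14.1, 13.1 and 14.6 CPM in co-culture. Every co-cultured library was below every isolated one and the log2 fold change was -0.74 ± 0.15 (edgeR adjusted p = 0.00198). Rybp, the subunit that takes the same place as Yaf2, had a log2 fold change of 0.47 ± 0.18 and did not pass (edgeR adjusted p = 0.0674). Scmh1 rose by a log2 fold change of 0.38 ± 0.12 (edgeR adjusted p = 0.0297), a call that was lost without isolated control library 1 or 2 (0.0980 and 0.133) or co-culture control library 2 or 3 (0.0927 and 0.0748). The remaining PRC1 genes and both PR-DUB genes ranged from -0.41 for Pcgf6 to 0.24 for Cbx6 and did not pass.

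The GC-adjusted fit called the same 8 genes in the same directions. It added Rybp (0.53 ± 0.14, edgeR adjusted p = 0.00702) and Aebp2 (0.37 ± 0.08, 0.00134) as higher and Jarid2, a PRC2 cofactor that helps to place the complex, as lower (-0.40 ± 0.12, 0.0165). That gave 11 members, 33.3%, where 26.7% of all tested genes were called (14.9% higher, 11.8% lower). Without isolated control library 1 or 2, edgeR called 5 members, and 1494 and 1432 of all tested genes where 2637 had been called. With upper-quartile scaling 6 members were higher and 1 lower, and the higher share of all called genes went from 55.7% to 44.2%.

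**Figure D2:**
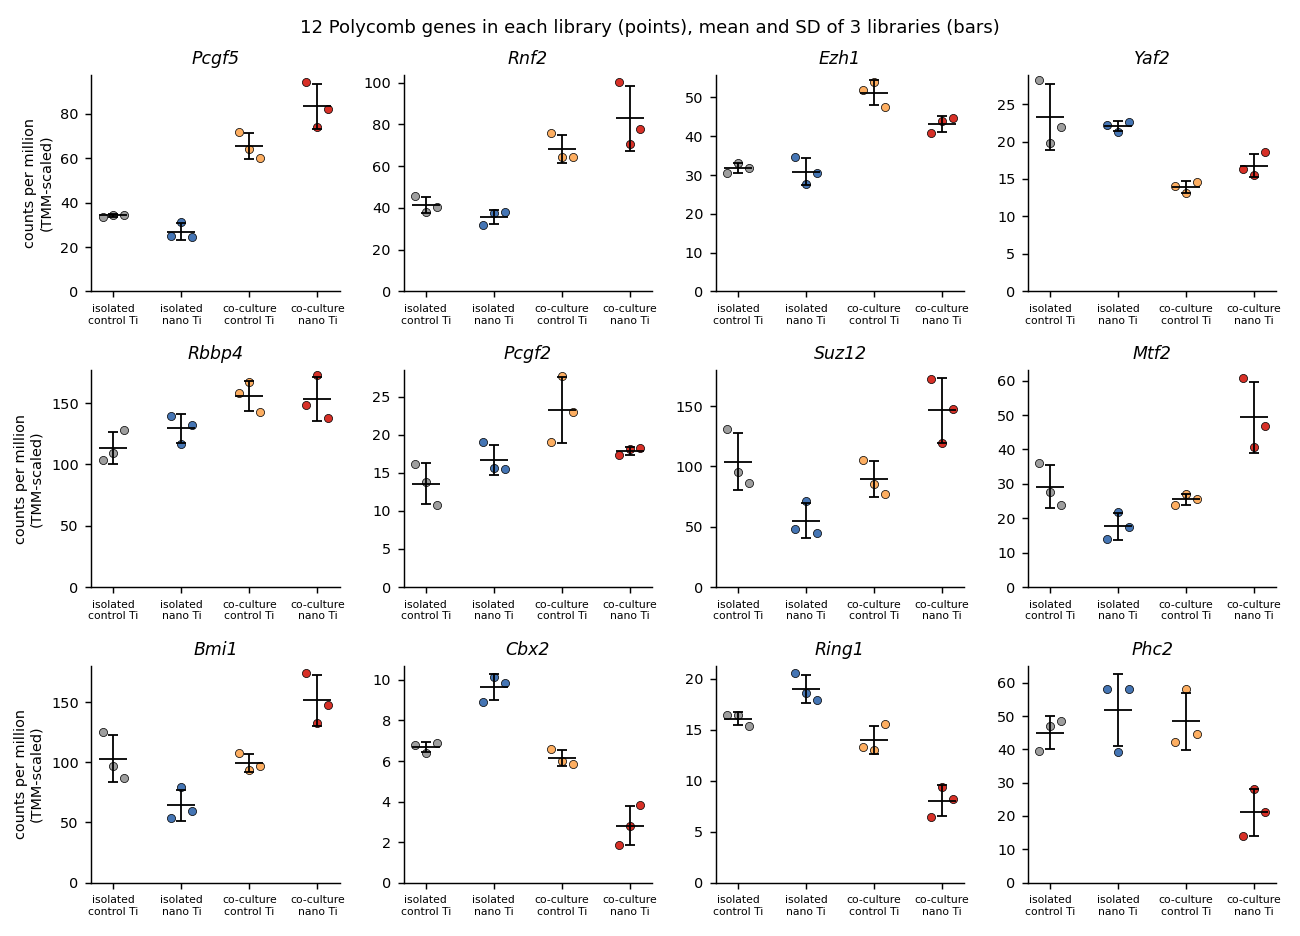
Expression of 12 Polycomb genes in CPM (TMM-scaled library sizes, axes from 0), with a point for each library and bars for the mean and SD of 3 libraries. Pcgf5, Rnf2 and Ezh1 are higher and Yaf2 lower in both co-culture groups than in the isolated groups, while Suz12, Mtf2 and Bmi1 are highest, and Cbx2, Ring1 and Phc2 lowest, in co-culture on nanotopography.

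On nanotopography, 14 members were higher and 7 lower with osteoclasts, 63.6% of the 33. The background was as high: 59.1% of all tested genes were called (28.7% higher, 30.4% lower). The groups did not overlap for 23 members and for 64.4% of all tested genes. The higher members were led by Pcgf5 and Rnf2, the PRC2 cofactors Mtf2 and Aebp2, Suz12 and Bmi1. The lower members were led by the PRC1 genes Cbx2, Ring1 and Phc2. Transcripts of low GC content made up the first set and transcripts of high GC content the other: of 13 members under 45% GC, 11 were higher and all 13 had a positive log2 fold change, and of 16 members at 50% GC or more, 2 were higher and 6 lower. All tested genes showed the same trend, with median log2 fold changes of 1.01 under 40% GC, 0.60 at 40% to 45% and -0.34 at 50% to 55%. The share of all genes called in each GC class was not computed, so these counts do not set the members apart.

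Pcgf5 stood at 24.8, 31.2 and 24.5 CPM in isolated cells on nanotopography and at 94.1, 73.9 and 82.0 CPM in co-culture. No library overlapped and the log2 fold change was 1.63 ± 0.13 (edgeR adjusted p = 3.23e-08), or 0.69 ± 0.10 after GC adjustment (1.18e-05). Rnf2 stood at 31.9, 37.7 and 37.9 CPM against 101, 70.9 and 77.7 CPM. It was separate in all libraries, with a log2 fold change of 1.21 ± 0.14 (edgeR adjusted p = 1.56e-06), or 0.34 ± 0.10 after GC adjustment (0.0115). Ezh1 stood at 34.5, 27.7 and 30.5 CPM against 40.7, 44.0 and 44.6 CPM. The groups were separate and the log2 fold change was 0.48 ± 0.12 (edgeR adjusted p = 0.00181), or 0.68 ± 0.10 after GC adjustment (1.94e-05). Ezh2 averaged 72.7 ± 4.88 and 88.9 ± 11.5 CPM (SD, n = 3 each), with a log2 fold change of 0.29 ± 0.12 that passed (edgeR adjusted p = 0.0390) and was -0.13 ± 0.09 after GC adjustment (0.258). The log2 fold change of Ezh2 was 0.17 without co-culture nanotopography library 1 (edgeR adjusted p = 0.224), and its call was also lost without isolated control library 2 (0.0567) or isolated nanotopography library 1 or 3 (0.0999 and 0.150).

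Suz12, the scaffold that holds PRC2 together, stood at 48.4, 71.7 and 44.8 CPM in isolated cells on nanotopography and at 173, 120 and 147 CPM in co-culture. The lowest co-cultured library was above the highest isolated one. Suz12 had a log2 fold change of 1.41 ± 0.19 (edgeR adjusted p = 8.46e-06), or 0.68 ± 0.11 after GC adjustment (4.64e-05). Mtf2, which carries PRC2 to unmethylated CpG islands, stood at 14.0, 21.8 and 17.4 CPM against 60.7, 40.6 and 46.7 CPM. The groups were separate, with a log2 fold change of 1.47 ± 0.19 (edgeR adjusted p = 4.33e-06), or 0.48 ± 0.12 after GC adjustment (0.00336). Bmi1 stood at 53.9, 79.2 and 59.4 CPM against 174, 133 and 148 CPM. It did not overlap either, and its log2 fold change of 1.24 ± 0.15 (edgeR adjusted p = 3.97e-06) was 0.43 ± 0.08 after GC adjustment (2.69e-04). Aebp2 stood at 80.0, 112 and 93.4 CPM against 217, 177 and 203 CPM. Its log2 fold change of 1.06 ± 0.13 (edgeR adjusted p = 2.78e-06) was 0.19 ± 0.08 after GC adjustment and no longer passed (0.0721).

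Of the lower members, Cbx2, a chromobox protein that compacts nucleosomes, stood at 8.93, 10.2 and 9.87 CPM in isolated cells on nanotopography and 1.85, 2.80 and 3.80 CPM in co-culture. The groups were far apart, with a log2 fold change of -1.78 ± 0.23 (edgeR adjusted p = 4.98e-06), or -0.94 ± 0.23 after GC adjustment (0.00229). Ring1 stood at 20.6, 18.5 and 17.9 CPM against 6.39, 9.41 and 8.22 CPM. Its log2 fold change was -1.24 ± 0.16 (edgeR adjusted p = 6.74e-06), or -0.45 ± 0.15 after GC adjustment (0.0224). Phc2, a Polyhomeotic protein that links PRC1 complexes to each other, stood at 58.1, 39.3 and 58.2 CPM against 14.1, 28.0 and 21.2 CPM. Its log2 fold change of -1.29 ± 0.21 (edgeR adjusted p = 4.87e-05) was -0.13 ± 0.14 after GC adjustment (0.504). Yaf2 was lower here as well, at 22.2, 21.3 and 22.6 CPM against 16.3, 15.5 and 18.6 CPM, without overlap. Its log2 fold change was -0.40 ± 0.15 (edgeR adjusted p = 0.0299), or -0.68 ± 0.14 after GC adjustment (6.38e-04). The edgeR call of Yaf2 was lost without isolated nanotopography library 1 or 3 (0.0654 and 0.0734) or co-culture nanotopography library 1 or 2 (0.0713 and 0.112).

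The other called members were Phc3 (0.87), Rybp (1.21), Eed (0.59), Scml2 (0.77), Scmh1 (0.37) and Pcgf3 (0.25) as higher and L3mbtl2 (-0.78), Bap1 (-0.58) and Cbx8 (-0.88) as lower, all log2 fold changes from edgeR. The call of Pcgf3 was lost without isolated control library 2, isolated nanotopography library 1 or 3, or co-culture nanotopography library 1 or 3 (edgeR adjusted p from 0.0592 to 0.169), and that of Scmh1 without isolated nanotopography library 3 (0.0552). L3mbtl2 is a chromatin-reading subunit of a variant PRC1, and Bap1 is the PR-DUB enzyme that removes ubiquitin from H2A. The GC-adjusted fit called 12 members higher and 5 lower, 51.5% of the 33 against 39.3% of all tested genes (18.0% higher, 21.3% lower). Of the 21 calls of the edgeR fit, 12 held in the same direction and 8 were lost. Pcgf3 was called in the opposite direction (-0.43 ± 0.08, edgeR adjusted p = 1.35e-04). The adjusted fit added Phf1 (0.89 ± 0.17, 2.29e-04), Pcgf2 (0.61 ± 0.16, 0.00480) and Cbx6 (0.42 ± 0.09, 0.00100) as higher and Jarid2 (-0.40 ± 0.13, 0.0136) as lower. The 14 RAW 264.7 lineage markers other than Ctsk and Mmp9 moved with this comparison as a sum, as given above. Of the 7 tested markers of the full list, 5 were higher by edgeR, Mmp9 was lower (-0.52) and Ctsk was not called (0.14). After GC adjustment 6 were higher, Ctsk among them (0.22), and Mmp9 was not called (0.11). Atp6v0d2 and Clec5a passed the low-count filter only through co-culture on nanotopography, so these counts are not free of that filter. The libraries of Cd68 and Csf1r overlapped. The part of these markers in the members' values on nanotopography was not tested.

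**Figure D3:**
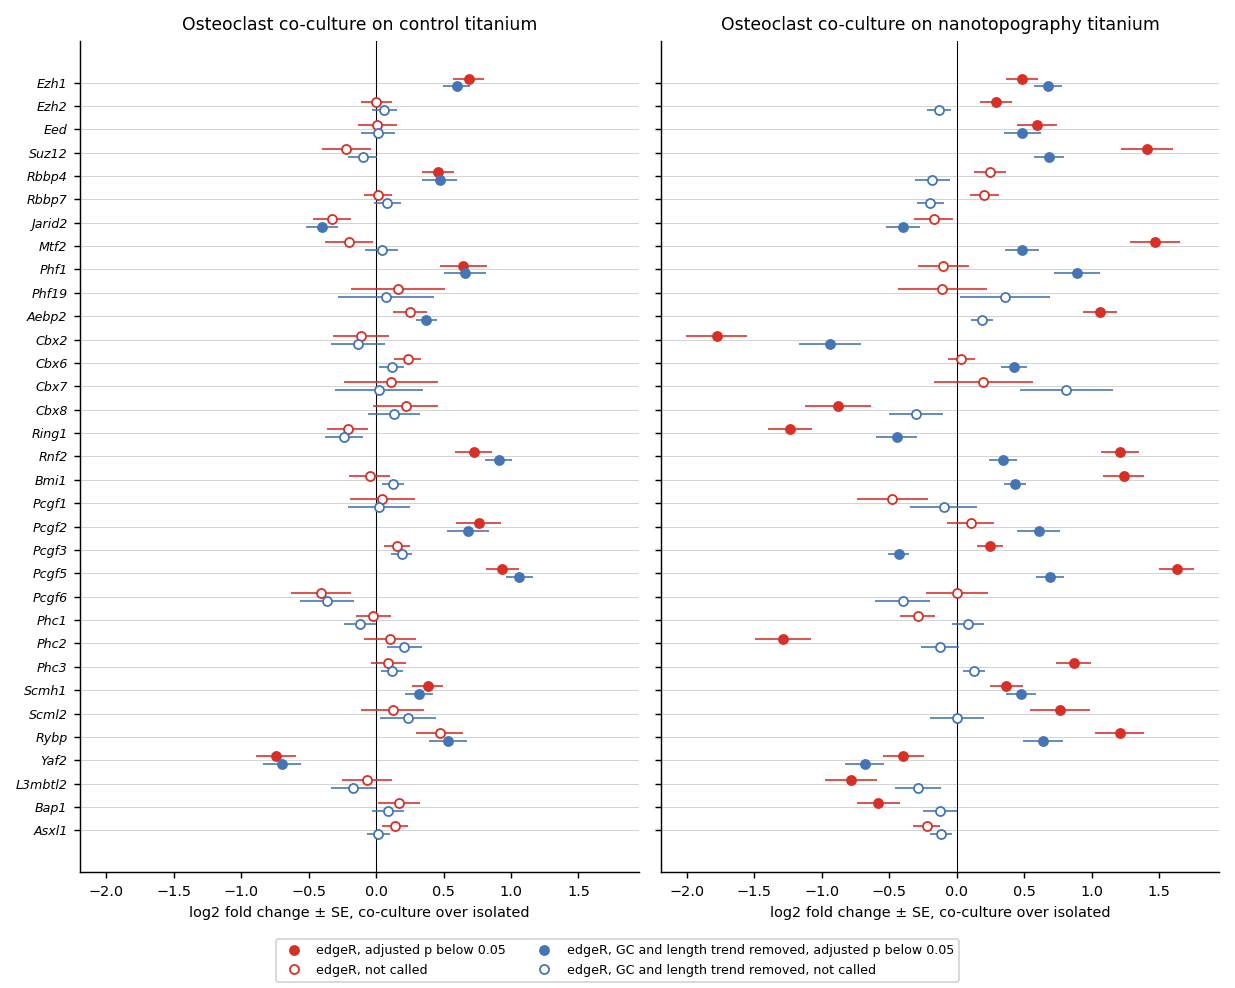
log2 fold change ± SE of each member between co-culture and isolated cells on control titanium (left) and on nanotopography (right), from edgeR (red) and from the GC-adjusted fit (blue). Filled points passed at an adjusted p below 0.05. On control titanium the fits lie close together, and on nanotopography the GC-adjusted values of Mtf2, Suz12, Aebp2, Cbx2, Ring1 and Phc2 lie nearer to 0.

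The osteoclast comparisons on the 2 surfaces share no library, so they can be set beside each other. Called in the same direction on both surfaces were 5 members: Pcgf5, Rnf2, Ezh1 and Scmh1 as higher and Yaf2 as lower. That was 15.2% of the members, against 9.23% of all tested genes (1231 of 13340). After GC adjustment 9 members were called alike on both surfaces, 27.3% against 12.9% of all tested genes, with Pcgf2, Phf1 and Rybp as higher and Jarid2 as lower beside the same 5 genes. No member was called in opposite directions in either fit. Of all 13340 tested genes, 423 were in the edgeR fit and 224 after GC adjustment. These shares are small, so the absence among 33 members does not set them apart. Over the 33 members, Pearson's r between the log2 fold changes on the surfaces was 0.317 (Spearman's rho 0.276) from edgeR and 0.614 (0.522) after GC adjustment. Genes are not independent replicates, and these correlations are descriptions without a test. The calls of Pcgf5, Rnf2 and Ezh1 held on both surfaces when any 1 library was left out. Another annotated gene overlaps exons of 13 members. It lies antisense for Pcgf5 (F530104D19Rik), Rnf2 (Trmt1l), Mtf2 (Tmed5), Phf1 (Cuta), Rbbp4 (Sync), Rbbp7 (Txlng), Cbx7 (Apobec3), L3mbtl2 (Chadl), Suz12, Ezh2, Eed and Asxl1, and on the same strand for Cbx6 (Npcd). Reads of these pairs may not be separable, as whether counting used strand is not given in the sources used here. Ezh1, Yaf2 and Scmh1 overlap no annotated exon of another gene.

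**Figure D4:**
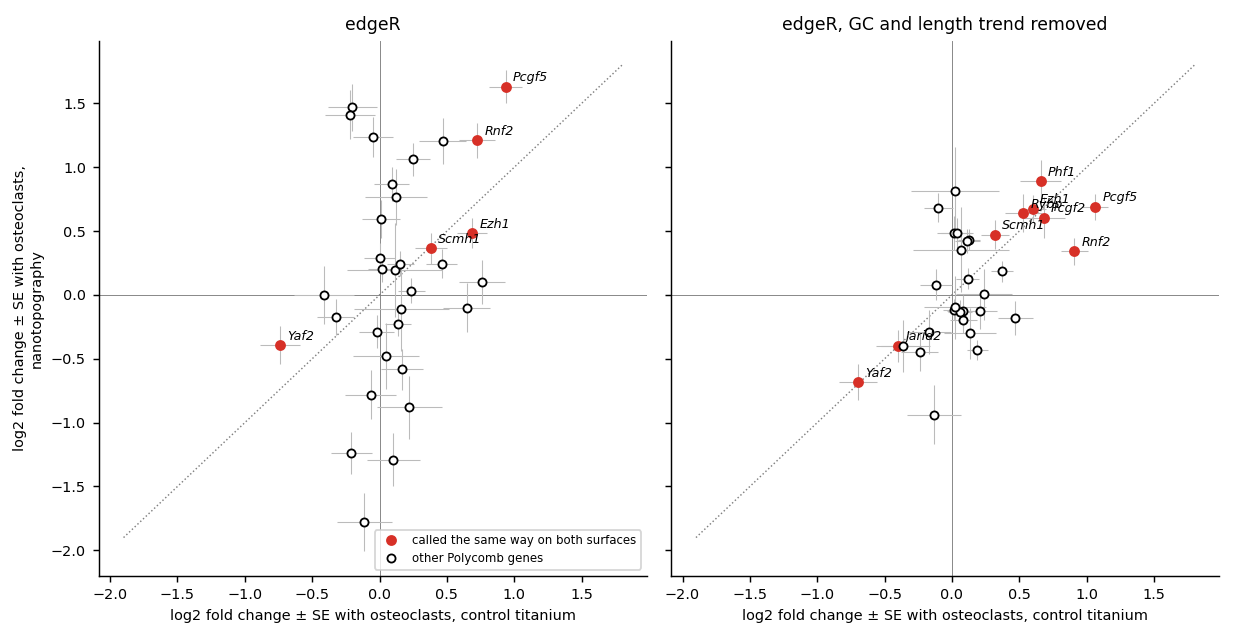
log2 fold change ± SE with osteoclasts on control titanium (horizontal axis) and on nanotopography (vertical axis) for the 33 members, from edgeR (left) and after GC adjustment (right); the dotted line marks equal values. Red points, called the same way on both surfaces, are 5 on the left and 9 on the right.

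The promoters of the 3 catalytic genes or partners called higher on both surfaces in both fits are shown because these members moved together. Each is the 250 bases before the annotated start, read on the gene's strand from the RefSeq table for build GRCm38.p6. Pcgf5 lies on chromosome 19 (chr19:36348079-36348328, plus strand), Rnf2 on chromosome 1 (chr1:151500992-151501241, minus strand) and Ezh1 on chromosome 11 (chr11:101226464-101226713, minus strand).
Pcgf5: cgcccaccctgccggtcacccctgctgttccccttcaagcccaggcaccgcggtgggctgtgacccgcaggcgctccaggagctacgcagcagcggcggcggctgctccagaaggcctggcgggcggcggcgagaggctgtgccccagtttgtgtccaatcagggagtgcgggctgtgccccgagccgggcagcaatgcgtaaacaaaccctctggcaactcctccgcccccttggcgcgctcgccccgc
Rnf2: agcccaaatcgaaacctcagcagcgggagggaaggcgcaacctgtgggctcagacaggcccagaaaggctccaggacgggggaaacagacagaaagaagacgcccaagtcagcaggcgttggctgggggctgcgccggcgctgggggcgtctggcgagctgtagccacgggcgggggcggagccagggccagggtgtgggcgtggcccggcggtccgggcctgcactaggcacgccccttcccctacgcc
Ezh1: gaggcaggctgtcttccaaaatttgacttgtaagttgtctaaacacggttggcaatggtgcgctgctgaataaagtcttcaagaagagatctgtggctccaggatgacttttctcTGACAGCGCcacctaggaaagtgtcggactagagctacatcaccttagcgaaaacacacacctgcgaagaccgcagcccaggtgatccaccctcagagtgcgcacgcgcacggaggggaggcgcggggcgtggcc
The GC content was 71.6% for Pcgf5, 70.4% for Rnf2 and 55.2% for Ezh1, with 23, 20 and 14 CpG dinucleotides. Of 33 members, 29 had an entry, 38 entries in all. On both strands and with overlaps allowed, the antioxidant response element TGACNNNGC matched 5 of the 38 entries and 10.2% of 32851 promoters of the same length. Its match in the Ezh1 sequence is in capitals. The hypoxia core ACGTG matched 11 entries and 16.6% of all promoters, and the AP-1 site TGACTCA 1 entry and 4.46%. None of these 3 motifs was in the Pcgf5 or Rnf2 window printed here.

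In isolated cells, nanotopography was accompanied by 1 higher member, Asxl1, and 3 lower members, Suz12, Bmi1 and Mtf2. This was 12.1% of the members, against 10.1% of all tested genes (4.48% higher, 5.62% lower). The groups did not overlap for 14 members and for 29.9% of all tested genes. Suz12 stood at 131, 95.5 and 86.1 CPM on control titanium and at 48.4, 71.7 and 44.8 CPM on nanotopography. The groups did not overlap and the log2 fold change was -0.92 ± 0.19 (edgeR adjusted p = 0.0156), or -0.56 ± 0.11 after GC adjustment (0.00678). Bmi1 stood at 125, 96.9 and 87.3 CPM on control titanium against 53.9, 79.2 and 59.4 CPM on nanotopography. Its log2 fold change was -0.68 ± 0.15 (edgeR adjusted p = 0.0193), or -0.25 ± 0.08 after GC adjustment (0.0774). Mtf2 stood at 36.0, 27.6 and 23.9 CPM against 14.0, 21.8 and 17.4 CPM, also without overlap, and its log2 fold change of -0.72 ± 0.19 (edgeR adjusted p = 0.0286) was -0.18 ± 0.13 after GC adjustment (0.459). Asxl1, the PR-DUB subunit that activates Bap1, stood at 97.6, 99.4 and 87.7 CPM against 119, 110 and 130 CPM. All nanotopography libraries were higher, with a log2 fold change of 0.33 ± 0.10 (edgeR adjusted p = 0.0412), or 0.25 ± 0.08 after GC adjustment (0.0836). The GC-adjusted fit called Suz12 lower and Pcgf3 higher (0.37 ± 0.08, edgeR adjusted p = 0.00975), 6.06% of the members against 5.58% of all tested genes (3.74% higher, 1.84% lower). Ezh1 (-0.05 ± 0.12), Ezh2 (0.03 ± 0.12) and Pcgf5 (-0.35 ± 0.13) did not pass. Without isolated control library 1 or 2, or isolated nanotopography library 1 or 3, 0 members passed with edgeR (7 to 9 at an unadjusted p below 0.05), as did 2, 46, 67 and 3 of all tested genes, while the log2 fold change of Suz12 stayed between -0.71 and -0.98 and that of Bmi1 between -0.51 and -0.72. Without isolated nanotopography library 2, 8 members and 2912 of all tested genes passed. Asxl1 also lost its call without isolated control library 3 (edgeR adjusted p = 0.0934) and without co-culture control library 1, 2 or 3 or co-culture nanotopography library 3 (0.0521 to 0.0635).

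In co-culture, 8 members were higher and 5 lower on nanotopography than on control titanium, 39.4% of the members against 42.0% of all tested genes (18.6% higher, 23.4% lower). The groups did not overlap for 19 members and for 53.4% of all tested genes. Phc2 had the smallest p, at 42.4, 58.1 and 44.8 CPM on control titanium and 14.1, 28.0 and 21.2 CPM on nanotopography. The groups were separate and the log2 fold change was -1.19 ± 0.21 (edgeR adjusted p = 3.85e-04), or -0.40 ± 0.14 after GC adjustment (0.0489). Mtf2 stood at 23.9, 27.1 and 25.5 CPM against 60.7, 40.6 and 46.7 CPM, with a log2 fold change of 0.95 ± 0.18 (edgeR adjusted p = 6.74e-04). Cbx2 stood at 6.60, 6.01 and 5.88 CPM against 1.85, 2.80 and 3.80 CPM, with a log2 fold change of -1.14 ± 0.23 (edgeR adjusted p = 0.00143). Both sets of libraries were separate. Ring1 stood at 13.3, 13.0 and 15.5 CPM against 6.39, 9.41 and 8.22 CPM, with a log2 fold change of -0.79 ± 0.17 (edgeR adjusted p = 0.00156). Phf1 stood at 16.4, 16.6 and 13.3 CPM against 7.24, 11.1 and 9.89 CPM, with a log2 fold change of -0.72 ± 0.18 (edgeR adjusted p = 0.00474). Bmi1 stood at 108, 93.9 and 97.0 CPM against 174, 133 and 148 CPM, with a log2 fold change of 0.60 ± 0.15 (edgeR adjusted p = 0.00488). None of these groups overlapped. The other calls were Suz12 (0.71), Phc3 (0.50), Scml2 (0.78), Aebp2 (0.41), Pcgf5 (0.35) and Ezh2 (0.32) as higher and Bap1 (-0.53) as lower. The call of Ezh2 was lost without co-culture control library 1, 2 or 3 (edgeR adjusted p from 0.0658 to 0.0904), and without co-culture nanotopography library 1 its log2 fold change was 0.21 (0.186). Aebp2 and Bap1 lost theirs without co-culture control library 2 or co-culture nanotopography library 1, and Scml2 without the latter (0.0624 to 0.0751). Of 16 macrophage and osteoclast markers 7 were tested, and 5 were higher in this comparison (Clec5a by 4.51, Atp6v0d2 by 3.40, Cd68 by 2.25, Csf1r by 1.76 and Lyz2 by 0.95 on the log2 scale). Clec5a and Atp6v0d2 averaged 0.24 and 0.33 CPM in co-culture on control titanium and 0 in isolated cells. They passed the low-count filter only through co-culture on nanotopography, so the share of tested markers that were higher is not free of that filter. The libraries of Cd68 and Csf1r overlapped. Of 10 osteoblast markers, 5 were lower, among them Col1a1 (-0.75), Alpl (-0.84) and Ifitm5 (-2.00), Spp1 was higher (0.44) and 4 were not called. After GC adjustment 3 osteoblast markers were lower and 1 higher, and Col1a1 (-0.06) and Spp1 (0.12) were not called. The part of these markers in the members' values was not tested.

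After GC adjustment, 1 member was higher in co-culture on nanotopography (Cbx6, 0.40 ± 0.09, edgeR adjusted p = 0.00509) and 4 were lower: Phc2, Pcgf5 (-0.27 ± 0.09, 0.0489), Rnf2 (-0.31 ± 0.10, 0.0315) and Pcgf3 (-0.25 ± 0.08, 0.0258). This was 15.2% of the members against 18.0% of all tested genes (7.01% higher, 11.0% lower). Phc2 held the same direction in both fits. Pcgf5 was called in opposite directions by them, and its edgeR call was lost without co-culture control library 2 or 3 (adjusted p = 0.0838 and 0.108) or co-culture nanotopography library 1 or 3 (0.142 and 0.0585). Without co-culture nanotopography library 1, which had the steepest GC trend and 15.8% mitochondrial ribosomal RNA, edgeR called 8 members, and 3271 of all tested genes where 5602 had been called.

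The change with osteoclasts differed between surfaces for 18 members by the interaction test, 9 in each direction, which is 54.5% of the members against 47.9% of all tested genes (22.5% higher, 25.4% lower). This contrast reuses the libraries of the comparisons above. The log2 fold change with osteoclasts was larger on nanotopography by 1.67 ± 0.26 for Mtf2 (edgeR adjusted p = 1.65e-04), by 1.63 ± 0.26 for Suz12 (2.26e-04) and by 1.29 ± 0.22 for Bmi1 (2.80e-04). It was smaller by a log2 difference of -1.67 ± 0.31 for Cbx2 (edgeR adjusted p = 5.23e-04), -1.39 ± 0.28 for Phc2 (9.68e-04) and -1.03 ± 0.22 for Ring1 (0.00149). For the genes called on both surfaces, the difference was 0.69 ± 0.18 for Pcgf5 (edgeR adjusted p = 0.00430) and 0.49 ± 0.19 for Rnf2 (0.0451), and Ezh1 (-0.20 ± 0.16), Scmh1 (-0.01 ± 0.17) and Yaf2 (0.35 ± 0.21) did not pass. After GC adjustment 4 members passed, 12.1% against 21.0% of all tested genes (7.73% higher, 13.2% lower): Suz12 (0.78 ± 0.16, edgeR adjusted p = 0.00146) as higher, and Rnf2 (-0.57 ± 0.15, 0.00862), Pcgf3 (-0.62 ± 0.11, 5.98e-04) and Rbbp4 (-0.65 ± 0.19, 0.0201) as lower. Suz12 kept its direction between the fits and Rnf2 did not. Pcgf5 was at -0.37 ± 0.14 after GC adjustment (edgeR adjusted p = 0.0662), opposite in sign to its edgeR value. The edgeR call of Rnf2 was also lost without isolated control library 1 or 2, isolated nanotopography library 1 or 3, co-culture control library 2 or 3, or co-culture nanotopography library 1 (edgeR adjusted p from 0.0507 to 0.147). Without isolated nanotopography library 1, edgeR called 11 members, and 5325 of all tested genes where 6384 had been called. Of 7 tested macrophage and osteoclast markers, Cd68 (2.33), Csf1r (1.90) and Lyz2 (1.54) also passed this test as higher by edgeR. Ctsk (0.12) and Mmp9 (-0.54) did not pass. For Atp6v0d2 and Clec5a the interaction could not be estimated, as both had 0 counts in isolated cells. After GC adjustment Lyz2 (1.59) no longer passed. The part of these markers in the members' interaction values was not tested.

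The GC content of a member's longest transcript ran from 38.2% for Mtf2, 39.5% for Rnf2 and 40.2% for Bmi1 to 57.6% for Cbx2, 58.6% for Phf1 and 60.4% for Phc2, with a median of 48.8%, against 49% over all tested genes. Stretches of coding sequence, bases 301 to 420 of each, are given for Mtf2, Rnf2, Cbx2 and Phc2, with G and C in capitals. They were read from the GENCODE M21 transcripts.
Mtf2: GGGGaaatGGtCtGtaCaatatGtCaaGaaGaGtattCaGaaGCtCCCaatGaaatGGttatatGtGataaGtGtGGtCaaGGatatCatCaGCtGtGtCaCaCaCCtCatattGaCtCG
Rnf2: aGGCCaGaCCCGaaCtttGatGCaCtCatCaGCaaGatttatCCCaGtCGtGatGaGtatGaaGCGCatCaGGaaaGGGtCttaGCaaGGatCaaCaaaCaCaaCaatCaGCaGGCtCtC
Cbx2: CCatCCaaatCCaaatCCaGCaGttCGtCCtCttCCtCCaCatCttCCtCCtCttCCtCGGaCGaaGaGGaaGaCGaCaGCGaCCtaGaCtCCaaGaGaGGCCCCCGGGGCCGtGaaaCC
Phc2: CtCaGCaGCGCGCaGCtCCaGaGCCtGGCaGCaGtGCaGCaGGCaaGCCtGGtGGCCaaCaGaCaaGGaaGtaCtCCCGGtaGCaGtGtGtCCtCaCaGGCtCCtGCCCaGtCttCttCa
G and C made up 40.8% of this stretch in Mtf2, 47.5% in Rnf2, 57.5% in Cbx2 and 61.7% in Phc2. The whole coding sequence of Rnf2 had 45.1%, above the 39.5% of its longest transcript, so its stretch does not show that low value. Over the 33 members, Spearman's rho between GC content and log2 fold change was 0.011 for osteoclasts on control titanium and -0.835 for osteoclasts on nanotopography. It was 0.735 for the surface in isolated cells, -0.877 for the surface in co-culture and -0.896 for the interaction. Over all 13340 genes the values in the same order were 0.16, -0.733, 0.621, -0.751 and -0.769. For osteoclasts on nanotopography, the median log2 fold change was 0.60 for all tested genes of 40% to 45% GC and 0.87 for the 11 members among them, and for genes of 55% to 60% GC it was -0.83 and for the 4 members among them -0.67. On control titanium the same classes had medians of -0.11 and 0.04. These correlations are across genes of the same libraries and carry no test. Whether the GC trend arose in the cells or in library preparation was not tested.

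**Figure D5:**
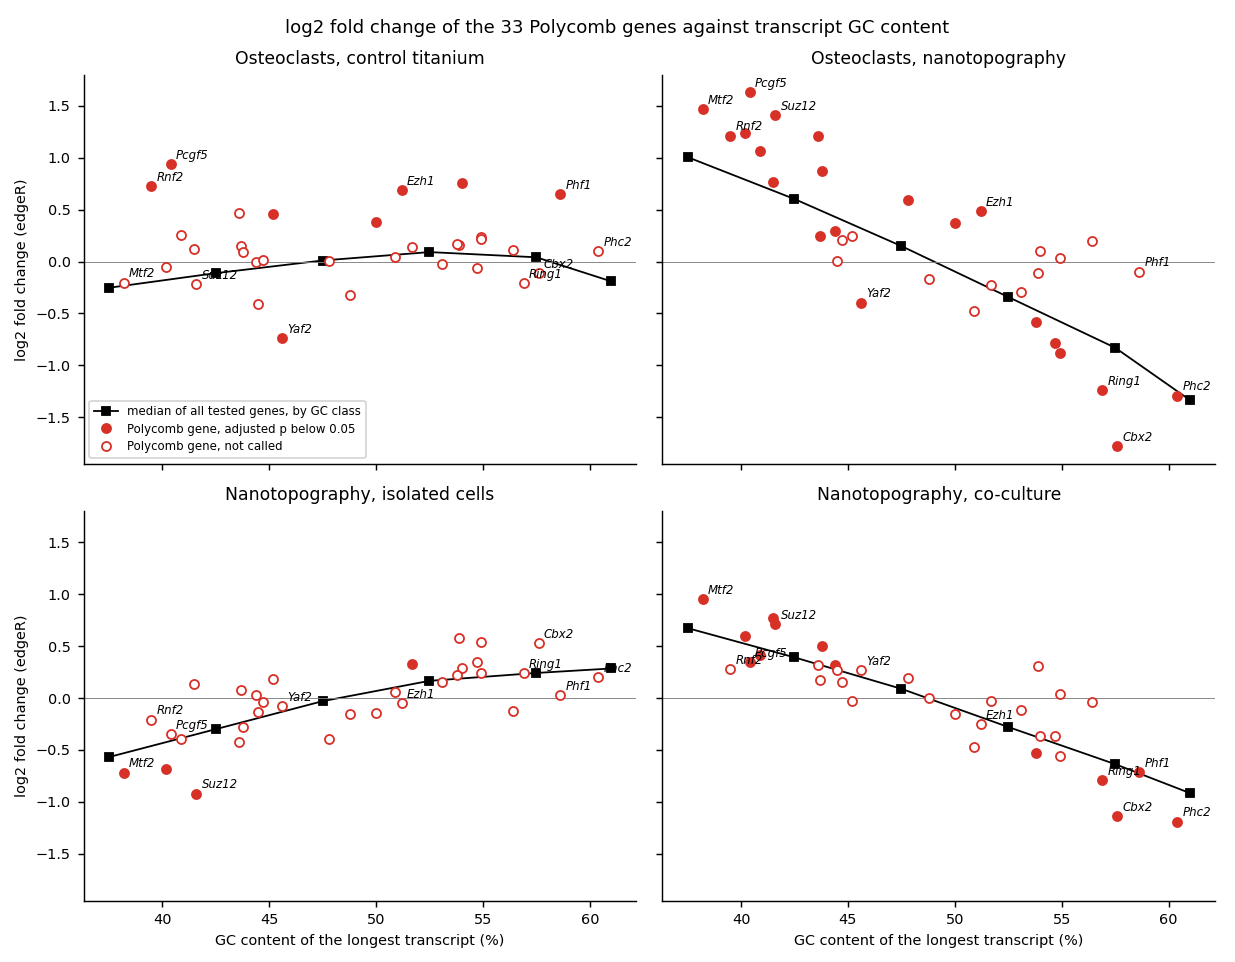
log2 fold change from edgeR against the GC content of the longest transcript for the 33 members (red; filled where the adjusted p was below 0.05) and the median of all tested genes in 6 GC classes (black squares), in 4 comparisons. The line is nearly flat for osteoclasts on control titanium and runs from 1.01 under 40% GC to -1.34 at 60% GC or more for osteoclasts on nanotopography.

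Genes that act beside or against Polycomb were read from the same fits. With osteoclasts on control titanium, 19.8% of all tested genes were called by edgeR and 26.7% after GC adjustment. On nanotopography the shares were 59.1% and 39.3%, and they are the background for the counts of each list. Of the H3K27 demethylases, Kdm6a and Kdm6b did not pass with osteoclasts on control titanium (-0.14 and 0.05). On nanotopography Kdm6a rose with osteoclasts by a log2 fold change of 0.92 ± 0.16 (edgeR adjusted p = 8.47e-05; 0.18 after GC adjustment, not called), while Kdm6b was not called by edgeR (-0.22) and was higher after GC adjustment (0.72). Of 10 other PR-DUB and H2A deubiquitinase genes, 1 was higher (Hcfc1, 0.35) and 1 lower (Foxk2, -0.35) on control titanium, and 6 were higher and 2 lower on nanotopography, where 59.1% of all tested genes were called, led by Ogt (1.06), Foxk2 (-0.89) and Asxl2 (1.12). After GC adjustment 3 were higher and 2 lower on nanotopography: of the 8 calls 3 held, 4 were lost, Asxl2 among them (0.19), and 1 was called in the opposite direction. Foxk2 was lower on both surfaces in that fit (-0.46 and -0.57). Of 19 variant PRC1 partners, 3 were higher and 3 lower on control titanium, led by Fbrsl1 (-0.68), Bcorl1 (0.44) and Fbrs (-0.46), and 5 were higher and 9 lower on nanotopography, led by Fbrsl1 (-1.33), Fbrs (-1.26) and Mga (1.13). After GC adjustment 2 of these were higher and 4 lower on either surface.

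For the lists that follow, the background was again 19.8% of all tested genes on control titanium and 59.1% on nanotopography by edgeR. After GC adjustment it was 26.7% and 39.3%. Of 15 COMPASS and Trithorax genes, which place active marks on H3, 1 was higher (Ash2l, 0.43) with osteoclasts on control titanium by edgeR, and 6 were higher and 7 lower on nanotopography, led by Cxxc1 (-1.14), Ash1l (0.93) and Men1 (-1.19). After GC adjustment 5 were higher and 3 lower on nanotopography, with 6 calls lost, Cxxc1 among them (-0.17), and 1 in the opposite direction, and 1 was higher and 1 lower on control titanium. Of 14 SWI/SNF chromatin remodelling genes, 2 were higher (Dpf2, 0.45; Smarcd1, 0.38) on control titanium, and 3 were higher and 7 lower on nanotopography, led by Smarca4 (-1.06), Pbrm1 (1.07) and Smarcd3 (-1.24). After GC adjustment 4 were higher and 5 lower on nanotopography, with 4 calls lost, Smarcd3 among them (-0.21), and 1 in the opposite direction, and 1 was higher and 3 lower on control titanium. Of 4 factors that bind DNA and are known to meet Polycomb there, Yy1, Rest, Runx1 and Hic1, Rest (0.26 ± 0.10, edgeR adjusted p = 0.0665) and Hic1 (-1.10 ± 0.40, 0.0618) had the smallest p on control titanium and did not pass. On nanotopography 3 were higher, among them Runx1 (0.93) and Rest (0.48), and Hic1 was lower (-2.57). After GC adjustment Rest (0.13) and Hic1 (-0.86) no longer passed there, and Rest passed on control titanium (0.20, edgeR adjusted p = 0.0369).

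Textbook Polycomb targets were low or undetected. Of 39 Hox genes, 25 had any count and 14 passed the filter: 6 of the Hoxa, 3 of the Hoxb, 5 of the Hoxc and 0 of the Hoxd cluster, whose 9 genes had 0 counts in every library. Hoxa3 was lower with osteoclasts on control titanium (log2 fold change -1.43 ± 0.36, edgeR adjusted p = 0.0106; also lower after GC adjustment, 0.00506) and higher on nanotopography than on control titanium in co-culture (1.53 ± 0.36, 0.00352; 1.89 after GC adjustment). Both edgeR calls of Hoxa3 rest on the same co-culture control libraries, where its level was low (1.40 ± 0.36 CPM, SD, n = 3). Hoxb6 (1.17) and Hoxc8 (1.08) were also higher in co-culture on nanotopography, and Hoxc8 (1.06) and Hoxa5 (0.88) were higher with osteoclasts on nanotopography. After GC adjustment 3 of the 14 were lower with osteoclasts on control titanium, where 26.7% of all tested genes were called. With osteoclasts on nanotopography 4 were higher (1 of the 2 edgeR calls held), against 39.3% of all tested genes called. For the surface in co-culture 3 were higher (2 of the 3 edgeR calls held), against 18.0%. For the surface in isolated cells the 14 tested Hox genes had log2 fold changes from -0.62 to 0.32 and did not pass. Cdkn2a and Cdkn2b, the cell-cycle inhibitors that Polycomb is known to silence, had 0 counts in all 12 libraries, which allows at most 0.0351 CPM over the 85418440 counts of the 12 libraries (3 counts, counting error only). Why these genes were undetected was not tested.

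Across the 5 comparisons, 8 members were not called by edgeR in any: Rbbp7, Jarid2, Phf19, Cbx6, Cbx7, Pcgf1, Pcgf6 and Phc1. Jarid2 and Cbx6 were called after GC adjustment, and the other 6 in neither fit. The levels of Cbx7 (2.81 ± 0.941 CPM in isolated cells on control titanium, SD, n = 3) and Phf19 (1.42 ± 0.295 CPM) were low, and their log2 fold changes with osteoclasts on control titanium had standard errors of 0.35. Between groups, edgeR called Suz12, Mtf2, Bmi1 and Phf1 in opposite directions in different comparisons. Phf1 was higher with osteoclasts on control titanium and lower on nanotopography in co-culture, and both calls rest on the same co-culture control libraries. After GC adjustment the second was 0.01 and was not called. Suz12, Mtf2 and Bmi1 were lower on nanotopography in isolated cells and higher on it in co-culture, which share no library. After GC adjustment only the lower call of Suz12 held among these. Pcgf2 and Asxl1 were each called in 1 comparison between groups, both as higher, and were lower by the interaction test alone, which reuses those libraries. Pcgf2 stood at 19.0, 15.6 and 15.5 CPM in isolated cells and 17.3, 18.2 and 18.3 CPM in co-culture on nanotopography, with overlap. Its interaction of -0.66 ± 0.24 (edgeR adjusted p = 0.0322) was -0.07 ± 0.23 after GC adjustment (0.852), and the call was lost without isolated control library 2 or 3, isolated nanotopography library 1, co-culture control library 2 or 3, or co-culture nanotopography library 1 or 3 (0.0535 to 0.105). Asxl1 stood between 101 and 107 CPM in all 6 co-cultured libraries. Its interaction of -0.36 ± 0.14 (edgeR adjusted p = 0.0367) was -0.13 ± 0.12 after GC adjustment (0.458), and the call was lost without isolated control library 3, isolated nanotopography library 1 or 3, any 1 co-culture control library, or co-culture nanotopography library 2 or 3 (0.0554 to 0.103).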

How the data were processed

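Gene counts deposited by the authors, 1 file per library, were used as they stand. Per the submitters' processing notes, which give no role or order, the tools were cutadapt, FastQC 0.63, STAR 2.4, HTSeq and DESeq2 with build mm10; the strand setting and annotation release are not given in the sources used here. Per the labels' protocols, total RNA went into SMARTer libraries. Of 12 files, 11 end without a line end and stop at different genes, so the 52654 genes complete in all were kept and 1621 left out, and the kept genes hold 99.924% or more of the counts in any library. All 52654 identifiers matched GENCODE M21 without version numbers.

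Libraries were scaled by TMM and filtered with filterByExpr, leaving 13340 genes (edgeR 4.0.16, limma 3.58.1, R 4.3.3). A robust quasi-likelihood fit of the 4 group means gave 5 contrasts, with Benjamini-Hochberg adjusted p-values over all tested genes and a threshold of 0.05. The common dispersion was 0.01506. For the GC-adjusted fit, each library's loess trend (span 0.3) of centred log2 CPM (prior count 2) with GC content and then length of the longest transcript entered as an offset. The code was tested on simulated data. Alternatives were DESeq2 1.42.0, limma-voom, other scalings and filters, protein-coding genes only, the compared groups alone, a block for replicate number, and 1 library left out at a time. Leaving out isolated nanotopography library 1 and co-culture nanotopography library 1 together was chosen after seeing the data.

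The 33 members and the other lists were chosen with earlier results of these data known. Values of each library are given for up to 6 called members with the smallest p in each contrast and for members called in opposite directions, and for each other list up to 3 called genes with the smallest p are named. Replicate numbers were not used to pair libraries.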

Additional observations from a re-analysis of the deposited data

Results flagged for a closer look

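For 18 members the osteoclast effect differed between surfaces by the edgeR interaction test, and their values are the log2 fold change with osteoclasts on nanotopography minus that on control titanium. Larger on nanotopography were the PRC2 genes Mtf2 (1.67), Suz12 (1.63), Aebp2 (0.81) and Eed (0.58) and the PRC1 genes Bmi1 (1.29), Phc3 (0.78), Rybp (0.74), Pcgf5 (0.69) and Rnf2 (0.49). Smaller on nanotopography were Cbx2 (-1.67), Phc2 (-1.39), Cbx8 (-1.1), Ring1 (-1.03), Pcgf2 (-0.66) and L3mbtl2 (-0.72) of PRC1, Phf1 (-0.75) of PRC2, and Bap1 (-0.75) and Asxl1 (-0.36) of PR-DUB. After GC adjustment the difference passed for Suz12 (0.78), Rbbp4 (-0.65), Rnf2 (-0.57) and Pcgf3 (-0.62).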

How the results depend on the processing

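Of 77 gene values, all kept direction and side of the threshold with DESeq2, RLE scaling and a filter of 1 CPM in at least 6 libraries (13360 genes kept). The number was 76 with limma-voom, 75 with upper-quartile scaling, 74 with protein-coding genes only and 68 without a filter. Removing the GC and length trend kept 23 and reversed 13; the cause was not tested. It left 2 members for the surface in isolated cells, 5 for the surface in co-culture and 4 for the interaction. Replicate numbers did not pair the libraries (correlations of same-numbered libraries from -0.391 to 0.303, with 6 of 18 over 0.1, and 10 of 36 for different numbers). With a replicate block edgeR called 8, 20, 3, 13 and 17 members in the order of the report, and with the replicate block and the GC trend removed 11, 17, 2, 3 and 4. The interaction could not be fitted on the compared groups alone. Leaving out 1 library gave 5 to 9, 17 to 23, 0 to 8, 8 to 16 and 11 to 19 members. Without isolated nanotopography library 1 and co-culture nanotopography library 1, edgeR called 0 members for the surface in isolated cells (7 at an unadjusted p below 0.05) and 9 for the interaction, and with the GC trend also removed 11 for osteoclasts on nanotopography, 2 and 1 for the surface in isolated cells and co-culture, and 3 for the interaction.

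Over all genes, removing the GC trend gave 5245 calls for osteoclasts on nanotopography, 744 and 2407 for the surface in isolated cells and co-culture and 2796 for the interaction, and with the replicate block 5040, 565, 2162 and 2538. Without a filter the surface in isolated cells gave 2104. Without those 2 libraries the surface comparisons gave 210 and 3322 and the interaction 4199, and with the GC trend also removed 3353, 241, 1070 and 1136. Leaving out 1 library gave 1432 to 2979, 6737 to 8128, 2 to 2912, 3271 to 5948 and 5320 to 6952.

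Reversed log2 values are given in the order GC trend removed, the same with the replicate block, and the same without those 2 libraries. For osteoclasts on nanotopography they were -0.13, -0.13 and -0.18 for Ezh2, 0.89, 0.89 and 0.93 for Phf1 and -0.43, -0.43 and -0.38 for Pcgf3. With 1 library left out Phf1 ran from -0.22 to 0.05 (without co-culture nanotopography library 1) and Cbx6 from -0.01 (without isolated nanotopography library 1) to 0.07, Phf1 was 0.11 without both libraries, and under the last of the 3 settings Phc2 was 0.02 and Scml2 -0.17. For the surface in co-culture they were 0.01, 0.02 and 0.04 for Phf1, -0.16, -0.16 and -0.13 for Aebp2, -0.31, -0.31 and -0.36 for Rnf2, -0.25, -0.26 and -0.2 for Pcgf3 and -0.27, -0.27 and -0.26 for Pcgf5. Ezh2 was -0.03 under the last setting, and Cbx6 ran from 0 (without co-culture nanotopography library 2) to 0.07. For the interaction they were 0.23, 0.24 and 0.27 for Phf1, -0.19, -0.18 and -0.2 for Aebp2, -0.57, -0.57 and -0.62 for Rnf2, -0.62, -0.62 and -0.57 for Pcgf3 and -0.37, -0.37 and -0.33 for Pcgf5, and Rybp was -0.1 under the last setting.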
